A study of Mus musculus with 6 samples.

Results

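The genes described here make up the oxygen-sensing pathway: the 3 prolyl hydroxylases Egln1, Egln2 and Egln3, the hypoxia-inducible factor (HIF) subunits Hif1a, Epas1 and Arnt, the ubiquitin ligase component Vhl, and the direct hypoxia targets Ndrg1, Bnip3 and Car9. They were chosen by symbol, as every probe set that the platform annotation assigns to one of these genes alone, which gave 25 of 45037 probe sets and 10 of 18193 genes. Expression was measured in endothelial cells pulled from the cerebellum at postnatal day 16 with beads that carried antibody to PECAM, an adhesion molecule on the endothelial surface. One group was Fz4-/- (3 arrays, called Fz4-null here), lacking Frizzled4, the receptor through which Norrin and some Wnt proteins signal to these cells, and the other was wild type (3 arrays). Both groups were of mixed gender on a C57Bl6/129 mixed background, and the study asked what a lasting loss of the receptor does to the endothelial transcriptome. The sources used here do not give whether a preparation came from 1 animal or a pool, and the p-values below therefore measure the spread between these preparations. The Fz4-/- label does not say that the loss is confined to endothelial cells.

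In cells with enough oxygen, Egln enzymes hydroxylate the HIF alpha subunits, the von Hippel-Lindau protein then binds them, and they are degraded. When oxygen is short the alpha subunits stay, pair with Arnt and switch on genes for glycolysis, blood vessel growth and adaptation, among them Egln3 itself, which closes a feedback loop. In brain endothelium Epas1 is a characteristic and abundant transcript, and much of the control of the alpha subunits lies in protein stability, which arrays of RNA do not measure.

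All levels are log2 RMA expression, on which a step of 1 is a 2-fold difference, and all differences are Fz4-null minus wild type. The targeted gene Fzd4 read between 3.04 and 4.03 on the Fz4-null arrays, against 10.20 to 10.88 on the wild-type arrays. Endothelial genes were bright on every array, with the mean of 16 pan-endothelial markers between 11.57 and 11.67 in Fz4-null and between 11.32 and 11.54 in wild-type preparations. Fz4-null replicate 1 stood apart by its low signal for other cell types, with a difference from the wild-type mean of -2.86 for microglial genes and -2.67 for fibroblast genes. Wild-type replicate 3 stood apart by choroid plexus genes, 1.57 above that mean. The arrays numbered 3 in both genotypes also differed from the rest in many probe sets. The number of arrays limits the precision. Over all genes, 4 of 18193 (0.022%) passed an adjusted p of 0.05 in limma, a count that was 0 with the replicate number as a block (1617 at an unadjusted p under 0.05).

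None of the 10 genes passed that threshold, and 1 gene, Egln3, stood out from the others. It was higher on all 3 Fz4-null arrays by its 2 probe sets, by 1.18 and 2.18 on the log2 scale. The other 9 genes lay between -0.22 and 0.35, and their Fz4-null and wild-type values overlapped. At an unadjusted limma p under 0.05, 1 of 10 genes was called, where 4.6% of all genes were. Groups did not overlap, with Fz4-null higher, for 1 of 10 genes, where 4.59% of all genes met that rule. A count of 1 in 10 says little about the genes as a set. Their median difference was 0.13, that of all genes 0.01.

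**Figure D1:**
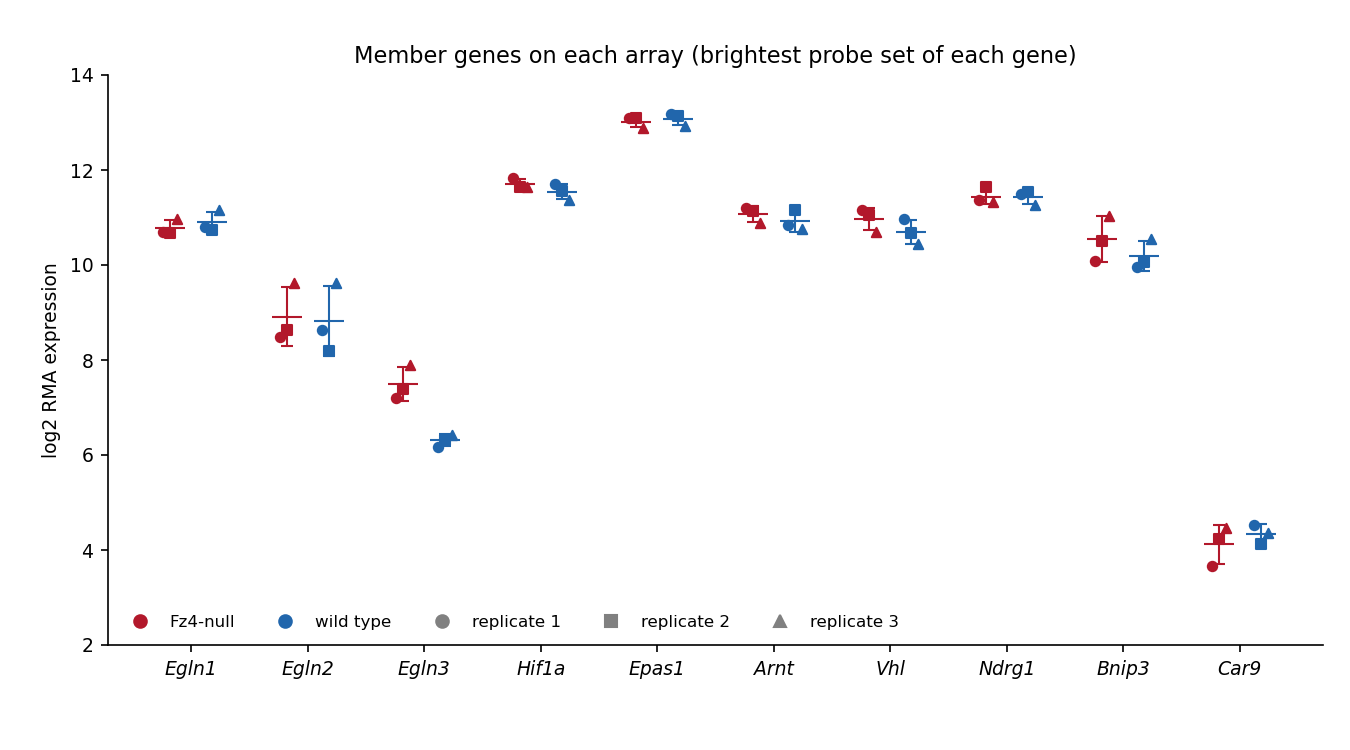
Log2 RMA expression (vertical axis) of the 10 genes, each from its brightest probe set, on 3 Fz4-null arrays (red, left) and 3 wild-type arrays (blue, right). Points are arrays, with the shape giving the replicate number, and bars are the mean and SD. Egln3 is the one gene whose groups do not overlap, with Fz4-null arrays between 7.21 and 7.89 and wild-type arrays between 6.18 and 6.43.

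Of the oxygen sensors, Egln3 is the one whose transcript is most strongly raised by hypoxia in many cell types. Its brighter probe set, 1418648_at, read 7.21, 7.38 and 7.89 on Fz4-null replicates 1 to 3, against 6.18, 6.32 and 6.43 on wild-type replicates 1 to 3. The lowest Fz4-null value lay 0.78 above the highest wild-type value. The means were 7.49 ± 0.35 in Fz4-null and 6.31 ± 0.13 in wild-type cells (SD, n = 3 each), a difference of 1.18 (SE 0.23) or 2.27-fold, with a 95% interval of 1.56 to 3.30-fold. The unadjusted limma p was 0.00133, rank 64 among all genes, and the adjusted limma p over all probe sets was 0.571, so the difference was not called. With 3 arrays a group, the smallest p that an exact permutation test allows is 0.1.

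The dimmer Egln3 probe set, 1418649_at, read 7.04, 6.20 and 7.56 on the Fz4-null arrays, against 4.51, 3.64 and 6.12 on the wild-type arrays. These groups did not overlap either, but the gap between Fz4-null replicate 2 and wild-type replicate 3 was narrow. The difference was 2.18 (SE 0.65), or 4.52-fold with an interval of 1.54 to 13.3-fold, and its adjusted limma p was 0.974 (0.0130 unadjusted). Wild-type replicates 1 and 2 lay below their array medians of 5.53 and 5.58 there, and replicate 2 also lay below its lower quartile, a range in which RMA compresses differences. Among all probe sets, 4.08% had groups that did not overlap with Fz4-null higher, against these 2 of the 25 probe sets described here.

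The 2 Egln3 probe sets varied differently from array to array. By replicate number the brighter one differed by 1.03, 1.06 and 1.46, and the dimmer one by 2.53, 2.56 and 1.44. Because the groups did not overlap in either probe set, any pairing of the arrays puts Fz4-null higher, so the signs of these differences add no further support. With the brighter probe set, leaving out any 1 array gave differences between 0.99 and 1.33, and leaving out both arrays numbered 3 gave 1.05. The sign of these differences was fixed by the lack of overlap. None passed the adjusted threshold (limma adjusted p between 0.241 and 1.00 over all alternatives).

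Levels of cell type markers on each array are given beside those of Egln3. Relative to its wild-type mean, the pan-endothelial list was higher by 0.27, 0.17 and 0.27 on Fz4-null replicates 1 to 3. Of its 16 genes, 13 were higher in Fz4-null cells. The brighter Egln3 probe set read 7.21, 7.38 and 7.89 on these arrays, against a wild-type mean of 6.31. Lists for cells outside the endothelium were lower on Fz4-null replicate 1, at -1.17 for pericytes and smooth muscle (12 genes), -1.70 for astrocytes and Bergmann glia (10 genes), -0.51 for oligodendrocytes (11 genes) and -0.98 for neurons (11 genes). Without that array Egln3 read 1.33 higher in Fz4-null cells. On Fz4-null replicates 2 and 3 those 4 lists lay between 0.002 and 0.31 above the wild-type mean. Microglial genes (10) lay at 0.06 and -0.44 and fibroblast genes (10) at 0.43 and -0.68 on these 2 arrays. Red cell genes (5) ranged from -0.65 to -0.002 over the 3 Fz4-null arrays and platelet genes (7) from -0.72 to -0.34. Choroid plexus genes were lower on all 3 Fz4-null arrays, at -1.92, -1.41 and -1.65 against the wild-type mean, and without wild-type replicate 3 Egln3 read 1.24 higher in Fz4-null cells. In bulk preparations, fewer cells of a type and less RNA per cell cannot be told apart. The part of the endothelial share, or of any other cell type, in the Egln3 difference was not tested.

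**Figure D2:**
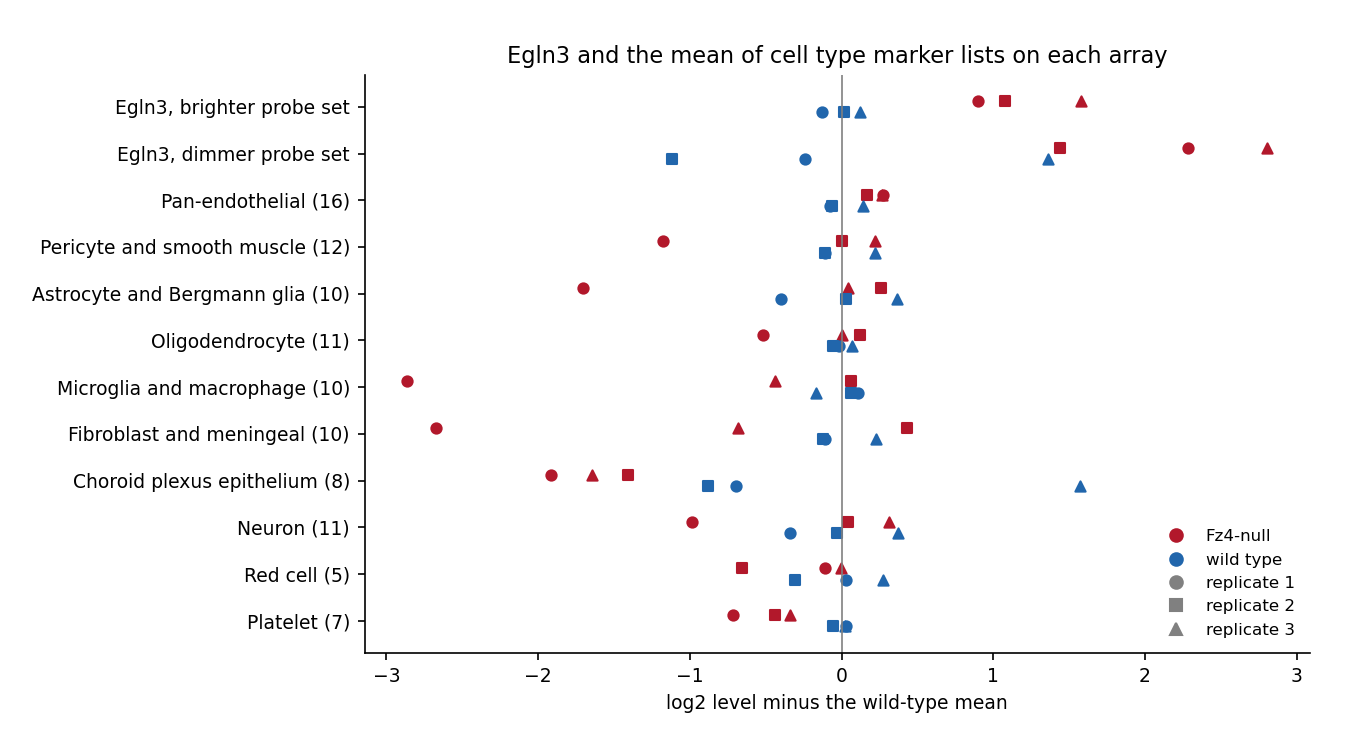
Level of both Egln3 probe sets and the mean of 10 marker lists (number of genes in brackets) on each array, as log2 minus the wild-type mean (horizontal axis), with Fz4-null arrays in red above wild-type arrays in blue. Egln3 lies to the right on all Fz4-null arrays, the pan-endothelial list is 0.17 to 0.27 above 0 there, and microglial and fibroblast genes are far to the left on Fz4-null replicate 1 alone.

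Egln1, the main oxygen sensor that sets HIF alpha levels in normal oxygen, did not follow Egln3. Its brighter probe set read 10.69, 10.67 and 10.96 on Fz4-null arrays, against 10.81, 10.74 and 11.15 on wild-type arrays, a difference of -0.12 (95% interval -0.59 to 0.35, limma adjusted p = 1.00). Its other probe set gave -0.10 (-0.83 to 0.63). Both intervals exclude a 2-fold difference in either direction. Egln1 was lower in Fz4-null cells within every replicate number, although the groups overlapped. The differences were -0.12, -0.06 and -0.18 by the brighter probe set and -0.04, -0.14 and -0.12 by the other. The sources do not pair arrays by number, so equal signs within numbers, here and for the genes below, were not taken as support. Egln2, the third family member, read 8.48, 8.63 and 9.63 on Fz4-null arrays, against 8.64, 8.19 and 9.62 on wild-type arrays. Its difference of 0.10 had a wide interval, -0.98 to 1.17. The array numbered 3 was higher than the mean of replicates 1 and 2 in both genotypes, by 1.07 in Fz4-null and 1.21 in wild-type cells.

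The stretches just upstream of the 3 sensor genes are shown because HIF binds the core letters ACGTG or GCGTG. Each is the 250 bases before the annotated start, from RefSeq (GRCm38.p6), on the gene's own strand, here the minus strand for all 3, at chr12:54203875-54204124 for Egln3, chr8:124949255-124949504 for Egln1 and chr7:27166803-27167052 for the first of 2 annotated starts of Egln2. Capitals mark ACGTG and GCGTG on either strand, so that CACGT and CACGC are matches on the opposite one.
Egln3: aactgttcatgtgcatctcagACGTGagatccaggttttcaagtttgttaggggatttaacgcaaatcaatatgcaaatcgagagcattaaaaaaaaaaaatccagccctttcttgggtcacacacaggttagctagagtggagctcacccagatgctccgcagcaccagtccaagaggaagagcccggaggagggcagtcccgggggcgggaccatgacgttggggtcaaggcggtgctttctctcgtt
Egln1: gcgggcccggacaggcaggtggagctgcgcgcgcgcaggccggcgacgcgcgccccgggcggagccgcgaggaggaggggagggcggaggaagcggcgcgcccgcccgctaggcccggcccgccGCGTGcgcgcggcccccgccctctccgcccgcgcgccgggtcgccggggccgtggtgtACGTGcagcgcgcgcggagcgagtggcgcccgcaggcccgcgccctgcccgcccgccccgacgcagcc
Egln2: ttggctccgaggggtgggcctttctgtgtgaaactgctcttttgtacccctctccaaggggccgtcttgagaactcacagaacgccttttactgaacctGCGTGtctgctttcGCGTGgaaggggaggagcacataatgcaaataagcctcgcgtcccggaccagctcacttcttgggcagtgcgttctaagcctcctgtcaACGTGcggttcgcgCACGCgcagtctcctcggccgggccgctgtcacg
Egln3 had 1 match, ACGTG at bases 229 to 225 upstream of its start. Egln1 had 1 ACGTG and 1 GCGTG, and Egln2 had 1 ACGTG and 3 GCGTG. These windows differ in base composition, with 50.8% G and C for Egln3, 86% for Egln1 and 59.2% for Egln2. Of 32851 RefSeq promoters, 16.6% held ACGTG, 28.2% held GCGTG and 38.6% held either in a window of this length. A match is a run of letters and not a measured binding site.

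The HIF alpha subunits showed no difference past the threshold. Epas1, which encodes the alpha subunit typical of endothelium, read 13.09, 13.09 and 12.88 on Fz4-null arrays, against 13.19, 13.13 and 12.92 on wild-type arrays. The difference was -0.06 with an interval of -0.48 to 0.35 (limma adjusted p = 1.00), so that a 1.5-fold rise was outside the interval. Epas1 was lower in Fz4-null cells within every replicate number, at -0.10, -0.05 and -0.04, while the groups overlapped. Its dimmer probe set gave -0.05, with the wider interval of -1.25 to 1.15, and was split by replicate number. There both arrays numbered 3 (8.43 in Fz4-null and 8.68 in wild type) lay below all 4 others, which read between 9.81 and 9.93.

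Hif1a, the alpha subunit found in most cell types, read 11.83, 11.64 and 11.64 on Fz4-null arrays, against 11.70, 11.56 and 11.38 on wild-type arrays by its brightest probe set (difference 0.16, interval -0.26 to 0.58, limma adjusted p = 1.00). Of its other 3 probe sets, 1416035_at gave 0.15 and 1448183_a_at gave 0.48. By 1448183_a_at, Hif1a read 9.97, 9.71 and 10.43 in Fz4-null cells, against 9.50, 9.29 and 9.90 in wild-type cells. It was higher in Fz4-null cells within every replicate number, by 0.47, 0.42 and 0.54, although the groups overlapped, since the array numbered 3 was the highest in each genotype (limma adjusted p = 1.00). The last, 1431981_at, lay below the array median on all 6 arrays and gave -0.04.

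Arnt, the partner that both alpha subunits need to bind DNA, had 5 probe sets with differences between -0.27 and 0.26. The brightest read 11.20, 11.14 and 10.89 in Fz4-null cells, against 10.83, 11.17 and 10.76 in wild-type cells (0.16, interval -0.30 to 0.63). It carries the suffix of probe sets that can read several transcripts. One probe set, 1425064_at, lay below the lower quartile on all 6 arrays and carries little information. Vhl, whose protein recognises hydroxylated HIF alpha, read 11.15, 11.06 and 10.70 in Fz4-null cells, against 10.96, 10.68 and 10.45 in wild-type cells. Its difference was 0.28 (interval -0.24 to 0.80). By the brightest probe set of each gene, this had the lowest limma p of the 9 genes other than Egln3, 0.249 unadjusted and 1.00 adjusted. Among all probe sets of these 9 genes the lowest unadjusted limma p was 0.114, for the Hif1a probe set 1448183_a_at. By the brightest Vhl probe set, Fz4-null was higher within every replicate number, by 0.19, 0.38 and 0.26, while the groups overlapped. The dimmer Vhl probe set spread more, with 5.74, 5.89 and 4.74 in Fz4-null cells and 5.92, 5.66 and 3.46 in wild-type cells.

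**Figure D3:**
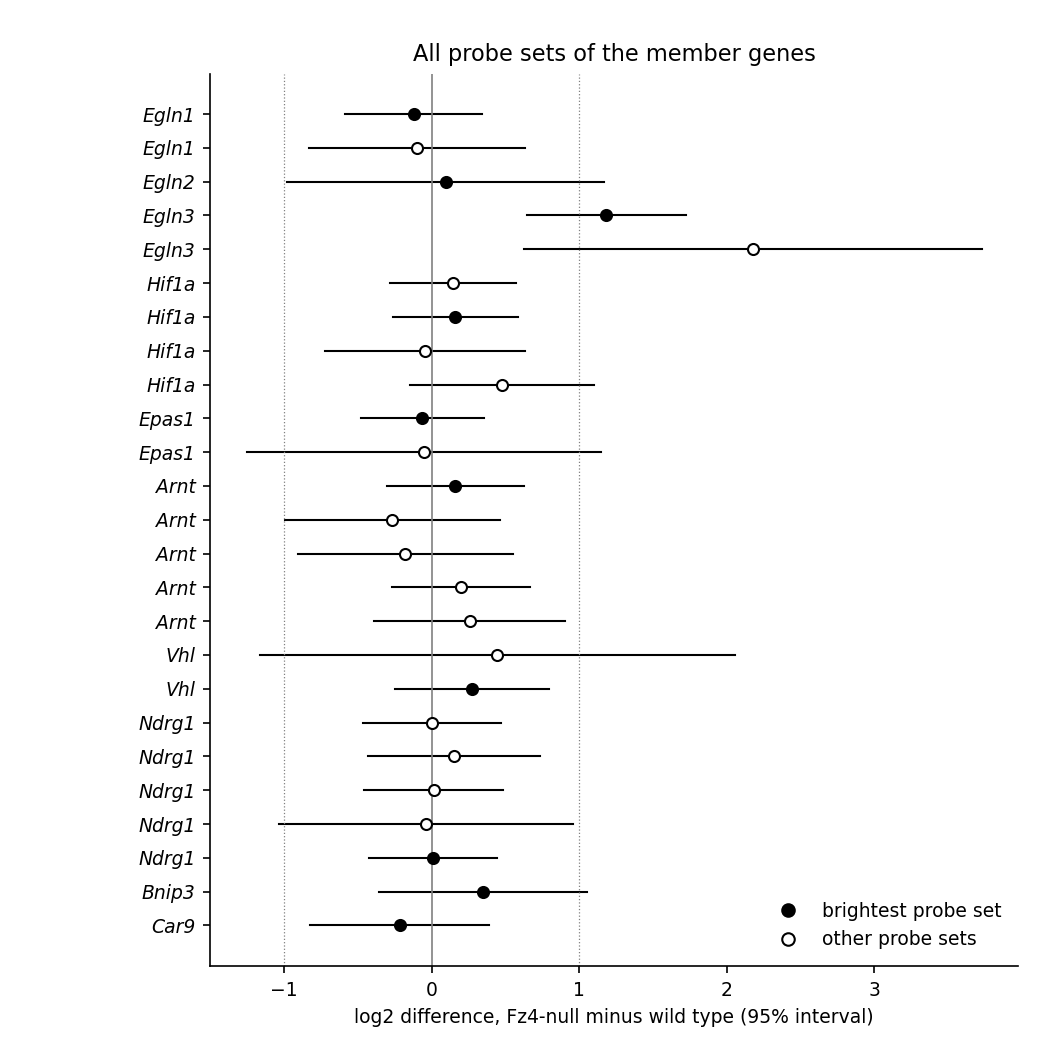
Log2 difference, Fz4-null minus wild type, with its 95% interval from limma (horizontal axis) for all 25 probe sets, grouped by gene. Filled points are the brightest probe set of a gene and dotted lines mark a 2-fold difference either way. The intervals of both Egln3 probe sets lie above 0 and those of the other 23 include 0.

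The direct targets were read as an output of the pathway. Ndrg1, a cytoplasmic protein strongly induced by low oxygen in many cells, differed little between the genotypes. Its brightest probe set read 11.37, 11.63 and 11.32 in Fz4-null cells, against 11.49, 11.54 and 11.27 in wild-type cells, and the difference was 0.01 (interval -0.42 to 0.44). The other 4 Ndrg1 probe sets gave between -0.04 and 0.15. Ndrg1 is also known from myelinating cells, whose marker list lay at -0.51 against the wild-type mean on Fz4-null replicate 1 (2 of its 11 genes, Mag and Olig2, were below the lower quartile on all 6 arrays), and the part of such cells in the Ndrg1 values was not tested.

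Bnip3, a mitochondrial protein that promotes mitophagy, read 10.07, 10.51 and 11.04 in Fz4-null cells, against 9.97, 10.06 and 10.55 in wild-type cells. Fz4-null was higher within each replicate number, by 0.11, 0.45 and 0.49, but the groups overlapped and the difference of 0.35 had an interval of -0.36 to 1.05 (limma adjusted p = 1.00). It was 0.10 without Fz4-null replicate 3 and 0.58 without Fz4-null replicate 1. Replicate numbers 1 and 2 are not shown to be specific pairs, so the equal signs within numbers were not taken as support. Car9, a carbonic anhydrase of the cell surface that is hardly expressed without hypoxia, was dim, with 3.66, 4.24 and 4.46 in Fz4-null cells and 4.53, 4.12 and 4.35 in wild-type cells. These values lay below the array medians (5.52 to 5.58) and above the lower quartiles (3.46 to 3.64) on all 6 arrays, so Car9 was not shown to be above background in either genotype. Its difference was -0.22 (interval -0.82 to 0.39). Among the 9 genes other than Egln3, the intervals of 7 lay within 2-fold either way, the exceptions being Egln2 and Bnip3.

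The upstream stretches of Bnip3 and Car9, whose human counterparts have well known HIF sites, are shown for comparison with that of Egln3, with the same marking, source and build. Bnip3 lies at chr7:138909507-138909756 on the minus strand and Car9 at chr4:43506776-43507025 on the plus strand.
Bnip3: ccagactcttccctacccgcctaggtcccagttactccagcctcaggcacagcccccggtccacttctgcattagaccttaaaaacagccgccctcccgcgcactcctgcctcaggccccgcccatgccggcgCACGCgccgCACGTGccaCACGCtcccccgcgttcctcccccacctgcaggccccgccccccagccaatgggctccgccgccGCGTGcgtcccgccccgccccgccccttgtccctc
Car9: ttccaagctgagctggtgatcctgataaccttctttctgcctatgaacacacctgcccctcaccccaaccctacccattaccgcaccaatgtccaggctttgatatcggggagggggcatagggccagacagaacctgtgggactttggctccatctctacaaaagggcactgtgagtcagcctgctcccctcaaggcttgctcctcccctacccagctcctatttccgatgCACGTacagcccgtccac
The Bnip3 window held 3 GCGTG and the palindrome CACGTG, which counts as ACGTG on both strands. Car9 had 1 ACGTG, on the opposite strand at bases 18 to 14 before its start. Promoters of 8 of the 10 genes were matched in RefSeq, and those of Epas1 and Ndrg1 were not used here. Matches to either core were present in 7 of these 8, Vhl being the exception, where 38.6% of all RefSeq promoters held either. Several windows are rich in G and C, with 86% for Egln1 and 72.4% for Bnip3. An excess of matches over promoters of like composition was not tested.

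Some values followed the replicate number and not the genotype. By the brightest probe set of each gene, the array numbered 3 lay over 0.5 from the mean of replicates 1 and 2 in the same direction in both genotypes for 2 of the 10 genes, Egln2 and Bnip3, against 19.3% of all genes, a share near the background. In 9 of the 25 probe sets, several of them of the same gene, the array numbered 3 did so, against 18.3% of all probe sets. Higher on both were Egln2, the dimmer probe sets of Egln1 and Egln3, 1 Hif1a probe set and Bnip3. Lower on both were the dimmer probe sets of Epas1 and Vhl and 2 probe sets of Ndrg1. The sources used here do not give what the number stands for. Within a gene the probe sets could differ in this, as for Epas1, where the array numbered 3 stood at -0.21 in Fz4-null and -0.24 in wild-type cells by the brighter one, and at -1.47 and -1.17 by the dimmer one.

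**Figure D4:**
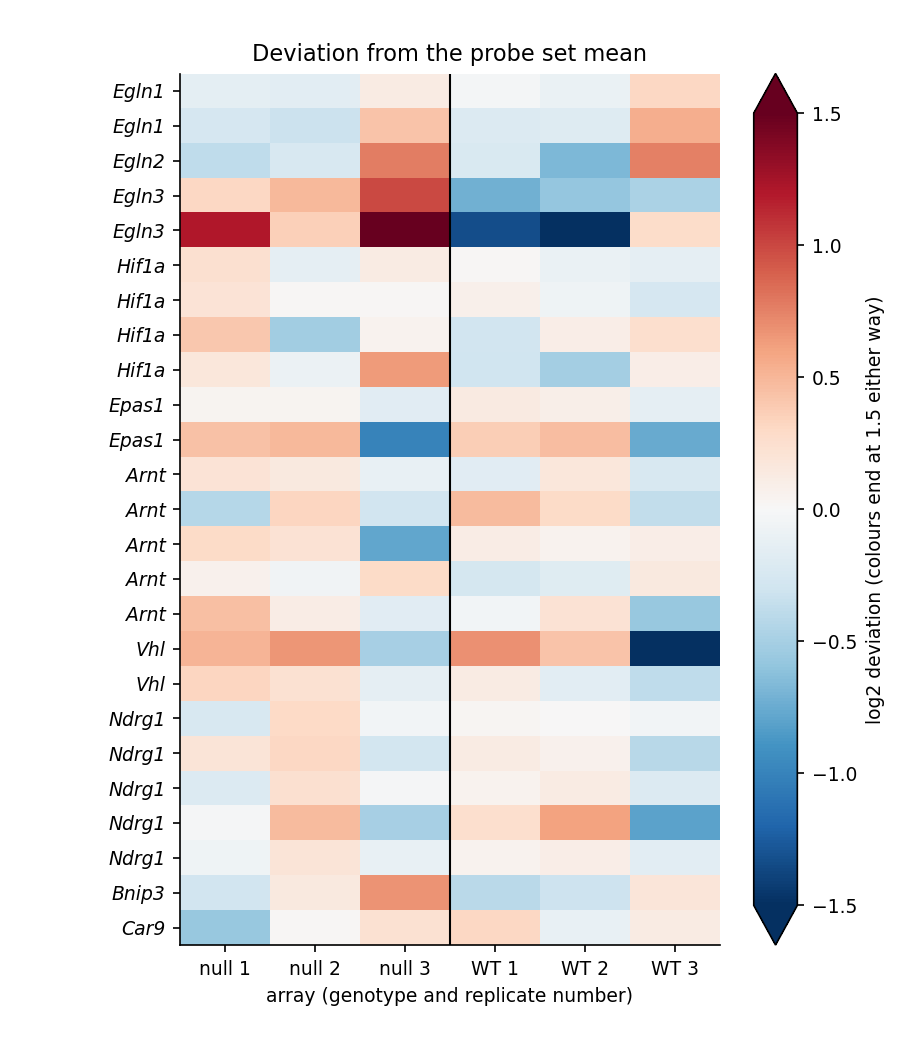
Deviation of each array from the mean of the 6 arrays in log2 units (colour), for the 25 probe sets in rows and the arrays in columns, Fz4-null left of wild type. The first Egln3 row, its brighter probe set, is split by genotype, while Egln2 and the second Epas1 row have their extreme values on the arrays numbered 3. In the second Egln3 row wild-type replicate 3 (6.12) lies close to Fz4-null replicate 2 (6.20), both above the mean of the row.

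The wider pathway was read from 3 lists chosen from knowledge of it. The 17 measured HIF regulators included cofactors, the asparagine hydroxylase Hif1an and the Vhl ligase partners. Of these, 0 passed over all probe sets and 0 had an unadjusted limma p under 0.05, where 4.6% of all genes did. The list had 8 genes higher and 9 lower, with a median within 0.01 of 0. The members with the lowest p were the ligase subunit Rbx1 (0.44, SE 0.23), the transmembrane prolyl hydroxylase P4htm (0.44, SE 0.29), the deubiquitinase Usp20 (0.51, SE 0.36) and the bHLH-PAS factor Npas1 (-0.31, SE 0.24), each with a limma adjusted p of 1.00.

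Of 17 measured glycolytic targets, 0 passed by either threshold, where 4.6% of all genes had an unadjusted limma p under 0.05. The list had 8 genes higher and 9 lower, with a median of -0.03. This median was -0.21 without Fz4-null replicate 3 and 0.078 without wild-type replicate 3. Groups did not overlap for 0 genes with Fz4-null higher and for 1, Slc2a3, with Fz4-null lower, where 4.59% and 4.95% of all genes met these rules. Of further genes in this list, picked after their values were seen, the endothelial glucose transporter Slc2a1 gave -0.05 (SE 0.16), phosphoglycerate kinase Pgk1 0.03 (SE 0.16), lactate dehydrogenase Ldha -0.09 (SE 0.20) and the pyruvate dehydrogenase kinase Pdk1 0.33 (SE 0.38). By the lowest p, the list was led by the neuronal and microglial glucose transporter Slc2a3 (-1.55, SE 0.97), Pfkfb3, which drives endothelial glycolysis (0.48, SE 0.32), Pfkfb4 (-0.52, SE 0.36) and hexokinase Hk2 (-1.16, SE 0.84). Slc2a3 read 5.42, 9.35 and 8.97 in Fz4-null cells, against 9.64, 9.37 and 9.38 in wild-type cells. Hk2 read 4.31, 8.03 and 6.17 in Fz4-null cells, against 7.51, 7.27 and 7.22 in wild-type cells. Both were lowest on Fz4-null replicate 1, the array on which microglial genes read -2.86 and fibroblast genes -2.67 against the wild-type mean. The lists for astrocytes, pericytes, oligodendrocytes and neurons were also lower there. The part of any of these cell types in the Slc2a3 and Hk2 values was not tested.

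Of 25 measured other HIF targets, 0 passed the adjusted threshold and 2 had an unadjusted limma p under 0.05, where 4.6% of all genes did. The list had 12 genes higher and 13 lower, with a median of -0.01. Groups did not overlap for 2 genes with Fz4-null higher and 4 with Fz4-null lower, where 4.59% and 4.95% of all genes met these rules. Stc2, a secreted glycoprotein, read 6.83, 7.30 and 6.75 in Fz4-null cells, against 6.27, 5.63 and 6.15 in wild-type cells (0.94, SE 0.25, limma adjusted p = 0.885). The transferrin receptor Tfrc gave -0.51 (SE 0.17) and the collagen-modifying lysyl hydroxylase Plod2 -0.57 (SE 0.27), both with a limma adjusted p of 1.00. The carbonic anhydrase Car12 read 3.36, 3.28 and 2.95 in Fz4-null cells, against 4.28, 3.72 and 6.83 in wild-type cells. Its one bright value was on wild-type replicate 3, where choroid plexus genes were also highest, and the part of that tissue in Car12 was not tested. The vascular growth factor Vegfa (0.16, SE 0.18), the vasodilator peptide Adm (-0.07, SE 0.15) and the ankyrin repeat gene Ankrd37 (0.18, SE 0.25), picked after their values were seen, differed by less than their SE. Adm is nevertheless one of the 4 genes whose groups did not overlap with Fz4-null lower, and the stress-induced gene Ddit4, also named after its values were seen, one of the 2 with Fz4-null higher (0.30, SE 0.20, limma adjusted p = 1.00).

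**Figure D5:**
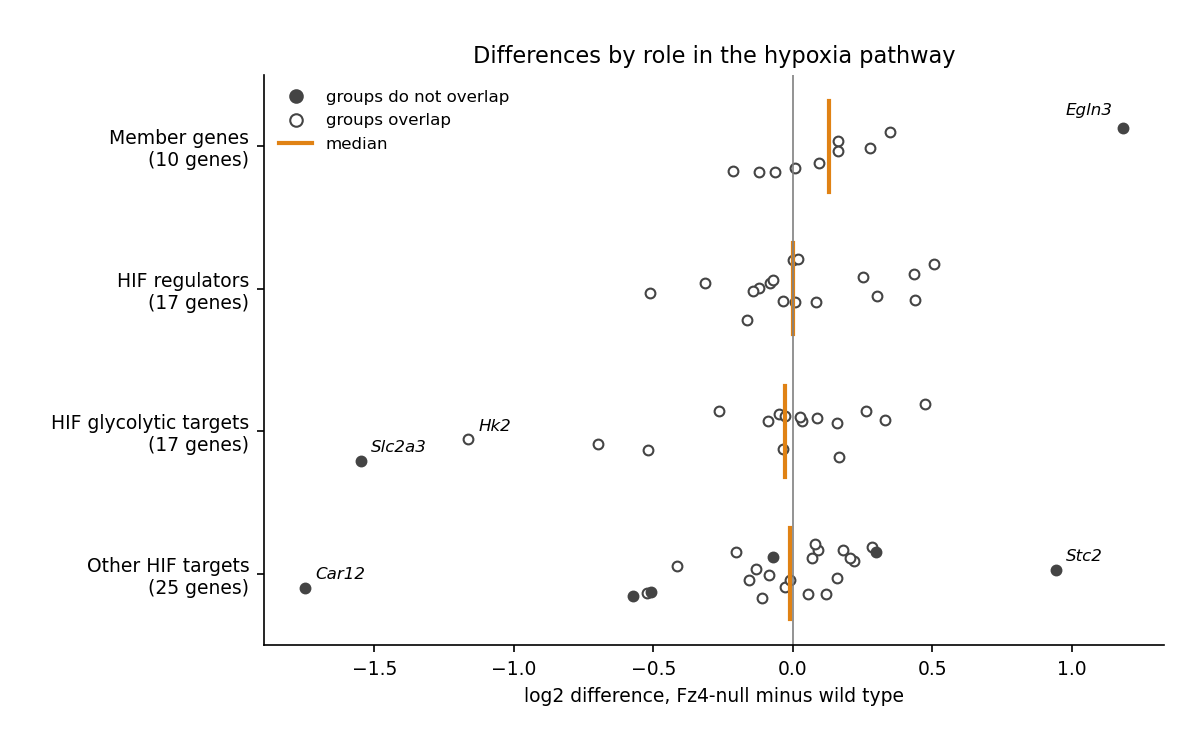
Log2 difference, Fz4-null minus wild type (horizontal axis), for the 10 genes and the 3 pathway lists. Each point is a gene, filled where the 3 Fz4-null and 3 wild-type arrays do not overlap, and the orange bar is the median, which is 0.13 for the 10 genes and lies within 0.03 of 0 for the lists. Egln3 has the highest difference among the genes plotted, at 1.18.

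The genes whose profile over the 6 arrays lay nearest to that of Egln3 were found by the root-mean-square distance between profiles centred on their own mean, among 10925 genes above the median level. They were the nuclear receptor Nr5a2 (distance 0.13), the matrix-associated surface protein Mxra8 (0.14) and the calpain protease Capn5 (0.17), where the median distance was 0.66. Nr5a2 read 7.91, 8.13 and 8.41 in Fz4-null cells, against 6.72, 6.82 and 6.80 in wild-type cells (1.37, SE 0.19, limma adjusted p = 0.287). Mxra8 gave 1.13 (SE 0.29) and Capn5 0.88 (SE 0.25), neither past the threshold. Capn5 read 5.67, 5.98 and 6.52 in Fz4-null cells, against 5.12, 5.08 and 5.32 in wild-type cells, so it lay below the array median on all wild-type arrays and met the level filter through its Fz4-null values. The distance is a description over 6 arrays, with no test. Nr5a2, Mxra8 and Capn5 were picked for a profile like that of Egln3 on the same arrays. Higher Fz4-null values in them followed from that choice, so their differences, SEs and limma p-values add no support for a genotype difference.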

How the data were processed

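The authors' deposited values are log2 expression per probe set, made with RMA, per the submitters' processing notes. RMA corrects background, brings arrays to a common distribution and summarises probes, and it compresses differences near background. The version is not stated in the labels. RNA was biotin-labelled for 1 array per preparation, per the labels' protocols.

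Of 45101 probe sets, 64 controls were left out. Names came from the platform annotation, where 34945 probe sets carried 1 symbol, 932 several and 9160 none, and 34741 matched RefSeq (GRCm38.p6) by identifier. Where a gene had several probe sets, the one brightest on average over all 6 arrays was taken. Fz4-null and wild-type arrays were compared in R 4.3.3 using limma 3.58.1 (lmFit, then eBayes, two-sided, Benjamini-Hochberg over all 45037 probe sets, threshold 0.05), checked on simulated data. Intervals are moderated 95% intervals.

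Members and lists were chosen with earlier results of these data known. Named beside the members were Fzd4, the 4 genes of lowest p in each pathway list, and the 3 nearest profiles of a member with an unadjusted p under 0.05. Slc2a1, Pgk1, Ldha, Pdk1, Vegfa, Adm, Ankrd37 and Ddit4 fall outside this rule and were named after their values were seen.

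Both genotypes have replicates numbered 1 to 3. Deviations from the group means correlated at 0.244, 0.303 and 0.574 for the same numbers, over the minimum of 0.1 for pairing, a basis in the data and not in the labels. Fz4-null replicate 2 also correlated at 0.262 with wild-type replicate 1, and Fz4-null replicate 1 at 0.124 with wild-type replicate 2, so numbers 1 and 2 are not shown to be specific pairs. No 2 arrays shared over 0.351% of values. Alternatives were other normalizations, filters on dim probe sets, a robust variance trend, array weights, the replicate block, the mean of probe sets, no probe sets of shared transcripts, each array left out and an adjusted p of 0.1. Leaving out both arrays numbered 3 and a term for them were added after seeing the data. Arrays have no read depth.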

Additional observations from a re-analysis of the deposited data

How the results depend on the processing

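Under all 19 alternatives 0 of the 10 genes (9 where Car9 was left out as dim) passed the limma threshold, and Egln3 was the 1 gene with an unadjusted p under 0.05. Over the 18 that refit or rescale the data, its difference lay between 0.99 and 1.68, the highest from the mean of both probe sets. The 10 genes gave 178 such values, of which 167 kept their direction and side of the threshold and 11, given next, changed direction. Ndrg1 read -0.0045 with quantile normalization, -0.013 with cyclic loess, -0.025 with array weights and -0.0097 without both arrays numbered 3. With 1 array left out, Ndrg1 ranged from -0.086 to 0.070, Egln2 from -0.26 to 0.50, Egln1 from -0.22 to 0.0044, Epas1 from -0.14 to 0.0084, and Car9 from -0.38 to 0.014. Differences that kept their direction ranged, also with 1 array left out, from 0.10 to 0.58 for Bnip3 and 0.15 to 0.41 for Vhl. Those of Hif1a ranged from 0.077 to 0.24 and those of Arnt from 0.08 to 0.28. The lowest for Vhl, Hif1a and Arnt came without wild-type replicate 3. Arnt was lower still, at 0.035, with the mean of its probe sets. The glycolytic median ranged from -0.21 to 0.078 and that of the HIF regulators from -0.042 to 0.058 with 1 array left out. The HIF regulator median was -0.053 without probe sets of shared transcripts. The median of the other HIF targets lay between -0.060 and 0.050 with 1 array left out, the highest without Fz4-null replicate 2. The replicate block changed the call of no member, with an Egln3 difference of 1.18 (SE 0.16) and limma adjusted p = 0.401.

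Over all genes the count past the threshold, 4, was 12 with array weights, 11 with the mean of probe sets, 0 with the replicate block (1617 at an unadjusted p under 0.05), 0 without both arrays numbered 3 (1498) and 1 with a term for them. With 1 array left out it was between 0 and 2. It was 2 without wild-type replicate 3, 1 without Fz4-null replicate 1 and 0 otherwise (556 to 933 unadjusted), in fits with fewer arrays. The cause of the other changes was not tested. Signal close to background limits Car9, the dimmer Vhl and Egln3 probe sets and 1 probe set each of Arnt and Hif1a.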
